A study of Rattus norvegicus with 6 samples.

Results

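Olfactory receptor probes that gave a signal in rat hippocampus were examined on 6 single-colour Agilent arrays. Array accessions were named through RefSeq's rat gene table (assembly GRCr8), and a probe was taken as an olfactory receptor probe where the symbol or an older synonym of its gene began with Olr and a digit. A member is such a probe that the scanner software marked well above background on all 6 arrays. The rule kept 245 probes for 243 genes, out of 1179 probes for 1141 genes with an Olr name and 30367 probes in all. The members were thus chosen by measured signal, the background flags of these same 6 arrays, and their levels and detection are given as a description with no test.

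The groups were 3 orchidectomized and 3 sham-operated male Wistar rats, operated at 2 months of age. All lived in a cycle of 12 h light and 12 h darkness and were given ketamine and medetomidine at collection 2 weeks after surgery. The hippocampus was taken, and 200 ng of RNA for each array was labelled with Cy3. The labels call the samples biological replicates but do not say which hemisphere was used. The comparison asks which hippocampal transcripts differed after removal of the testes.

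Olfactory receptors are G-protein-coupled receptors that olfactory sensory neurons use to bind odorants. In those neurons the receptor acts through the G protein subunit encoded by Gnal and the adenylyl cyclase Adcy3, and the cyclic AMP formed opens a channel that contains Cnga2. Receptor genes lie in clusters of closely related copies, and transcripts of some of them have also been described outside the nose, the brain included. Class I receptors are the families that also occur in fish, and class II receptors are the larger terrestrial group.

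Of the 245 members, 235 now carry a symbol beginning with Or and 10 still have a symbol beginning with Olr. Among these 10, Olr1 is the gene of the oxidized low-density lipoprotein receptor LOX-1, a scavenger receptor of vascular cells and no olfactory receptor. It entered by its symbol alone. Olr59 is the rat counterpart of the ectopic receptor OR51E2, which is known from prostate, kidney and carotid body. The probes' own sequences were not used here, so signal from near-identical copies of a receptor cannot be told apart from its own.

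The RefSeq promoter table of GRCr8 held 206 of the 243 member genes, and the 250 bases before each annotated start were searched for a pair of motifs known from olfactory receptor promoters. The homeodomain core TAATTA and the Olf1/Ebf-type motif CCCNNGGG both read the same on the other strand, so a match covers both, and they do not overlap in letters. TAATTA was present in 32 of the 206 member windows (15.5%), in 146 of 764 windows of the other Olr-named genes (19.1%) and in 4.94% of all 27457 windows. CCCNNGGG was present in 2 member windows (0.971%), in 8 windows of the other Olr-named genes (1.05%) and in 11.0% of all windows. Members and other receptor genes were close to each other in both shares. For 218 of the 243 members the annotated gene model is shorter than 1100 bases, so most of these windows begin at a start that may lie inside the transcript. The windows of Or2t48, to which the comparison of groups returns, and of Olr35 are shown because both have longer models and they differ in the motif (Or2t48 on the minus strand at chr10:43288137-43288386, Olr35 on the plus strand at chr1:163453845-163454094). Capitals mark TAATTA, which the first lacks.
Or2t48: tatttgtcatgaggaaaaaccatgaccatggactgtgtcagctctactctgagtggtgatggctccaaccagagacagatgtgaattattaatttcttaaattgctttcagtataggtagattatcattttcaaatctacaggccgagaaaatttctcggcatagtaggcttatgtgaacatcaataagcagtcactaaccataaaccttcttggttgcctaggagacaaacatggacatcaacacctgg
Olr35: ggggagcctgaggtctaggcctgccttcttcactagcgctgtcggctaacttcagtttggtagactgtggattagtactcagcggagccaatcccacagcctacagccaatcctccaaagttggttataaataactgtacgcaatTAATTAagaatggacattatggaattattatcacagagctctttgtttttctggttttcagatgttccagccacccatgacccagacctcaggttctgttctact

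The arrays differed in detection, and 1 of them went against its label. Between 78.3% and 86.2% of all probes were well above background per array. On the array labelled sham 2, the mean log2 value of 8 glutamatergic neuron genes was -6.26, against 0.03 to 0.65 on the other 5 arrays, and that of 8 choroid plexus genes was 4.75, against -4.76 to -2.84. Markers of a hippocampal sample were thus low on that array and markers of the choroid plexus, a ventricular tissue, were high. The comparison of the members is given with all 6 arrays and without that array. Slide 1 held orchidectomized 1 and 2, slide 2 held orchidectomized 3 and sham 1, and slides 3 and 4 held sham 2 and sham 3. The first scan day covered the 3 orchidectomized arrays and sham 1, the second sham 2 and sham 3.

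Most Olr-named probes gave no signal in this tissue. Of the 1179 probes, 595 (50.5%) were well above background on no array, 157 on 1, 67 on 2, 38 on 3, 32 on 4, 45 on 5 and 245 (20.8%) on 6. Over all probes of the array, 9.88% were detected on no array and 74.8% on all. Detection of olfactory receptor probes was therefore mostly all or none, with no array as the commonest outcome. Per array, 388, 306 and 349 Olr-named probes were well above background in orchidectomized 1 to 3, and 454, 300 and 431 in sham 1 to 3. The lowest count was that of sham 2, while sham 1 and sham 3 were both above every orchidectomized array. Over all probes, 86.2% and 84.7% were well above background on sham 1 and 3, against 80.8% to 84.1% on the orchidectomized arrays. Of the 45 probes missed on 1 array, 35 were missed on sham 2.

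No Olr-named probe was detected on all 3 orchidectomized arrays and on no sham array. In the opposite direction, Or1n1b and Or1e27 were detected on all 3 sham arrays and on no orchidectomized array (0.170% of Olr-named probes, against 0.132% of all probes). At the threshold itself, the members with the smallest lowest values were Or2t45 at -7.58, Or4a71 at -7.51 and Or2t48 at -7.50 (log2 processed signal less the array's 75th percentile, the scale of all log2 levels given here). Just outside lay a further probe of Olr1454, missed on sham 2 at -7.05, Or7g23b, missed on sham 1 at -7.14, and Or51ab3, missed on sham 2 at -7.14. The lowest member value on each array lay 1.85 to 2.40 log2 units above the 99th percentile of that array's negative control spots.

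The members came from most receptor families. Class I contributed 33 of its 126 probes (26.2%) and class II 202 of 992 (20.4%). By family, detection on all arrays ran from 27.7% in family 2 (33 of 119 probes), 27.1% in family 6 (23 of 85) and 26.8% in family 52 (19 of 71) to 14.3% in families 5 (22 of 154) and 8 (18 of 126) and 10.9% in family 7 (6 of 55), among families with more than 50 probes. No single family supplied the set. Families 2 and 4 gave 33 members each.

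Members were spread through the receptor gene order. Along the order of the 1141 genes in GRCr8 there were 1125 neighbouring pairs. In 50 pairs both genes were members, in 376 only 1 was, and in 699 neither was. Member genes made up 21.3% of the ordered genes, and 21.0% of the members' neighbours were members. The longest run was 3 genes, and 12 member genes overlapped another annotated gene, and signal from that gene cannot be told apart.

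Further probes of the same genes often gave no signal. Of the 243 member genes, 13 had more than 1 probe on the array, and for 2 of them, Or1f20 and Or10p22, both probes were members. The remaining 11 genes had 13 other probes, of which 7 were detected on no array, 3 on 1 array, 1 on 2 arrays and 2 on 5 arrays. For Or1x2d the member probe read between -4.71 and -0.06, while its other probe was detected on no array and read between -10.28 and -8.74. The other probe of Or6c202e was likewise detected on no array. For most of these 11 genes, then, the probes disagreed on whether the gene was detected. Member genes with a single probe have no such check.

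**Figure D1:**
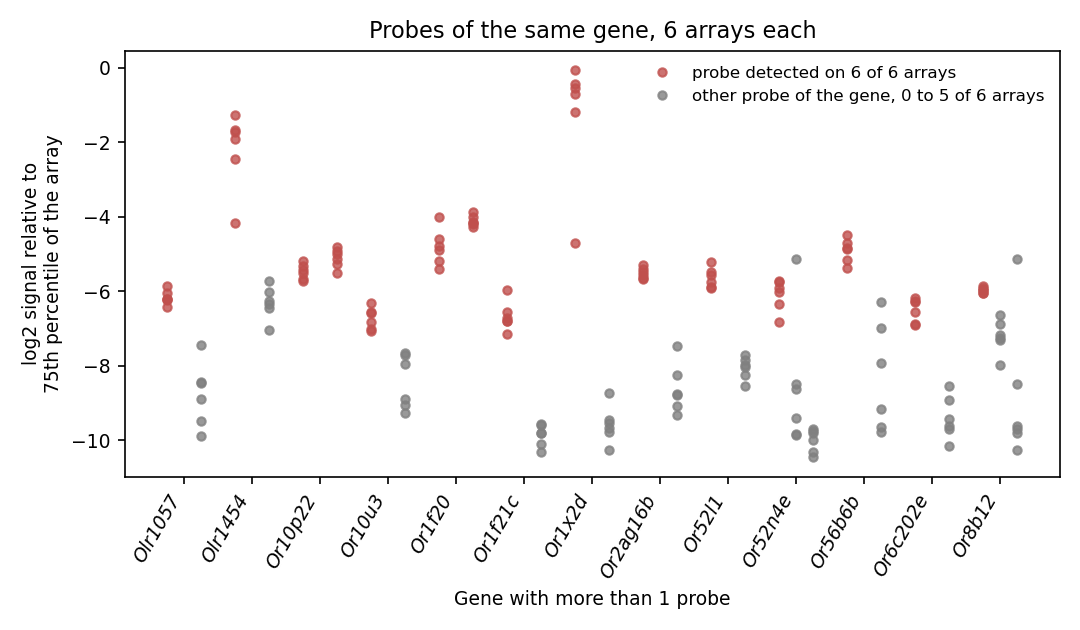
Log2 processed signal less the array's 75th percentile (vertical axis) for member genes with more than 1 probe, 1 column of points per probe over the 6 arrays. Of the 13 further probes that are not members, 7 were well above background on no array.

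The members as a set shifted little from array to array. The median of the 245 members was -5.33, -5.61 and -5.45 in orchidectomized 1 to 3 and -5.30, -5.48 and -5.43 in sham 1 to 3. The arrays' medians overlapped between the groups, and averaged -5.47 ± 0.14 (SD, n = 3) after orchidectomy against -5.40 ± 0.09 (SD, n = 3) after sham surgery. Without sham 2 the sham mean was -5.37 ± 0.10 (SD, n = 2). Single values ran from -7.58 to 1.11. Across the 245 members, values correlated between any pair of arrays other than sham 2 at 0.939 to 0.977 and with sham 2 at 0.850 to 0.864. For all 22704 probes with a value on all arrays the same correlations were 0.988 to 0.996 and 0.808 to 0.817. These are descriptions across probes, which share their arrays and are not independent replicates. Members of the set thus varied more among the 5 arrays than all detected probes did, and held closer to them on sham 2. The range over the 5 arrays had a median of 0.57 for members and 0.45 for all detected probes, and exceeded 1 for 37 members (15.1%) against 9.98%. Members were dim, with 89.8% to 91.8% of them below the median of each array. The part of signal level in these correlations and ranges was not tested.

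**Figure D2:**
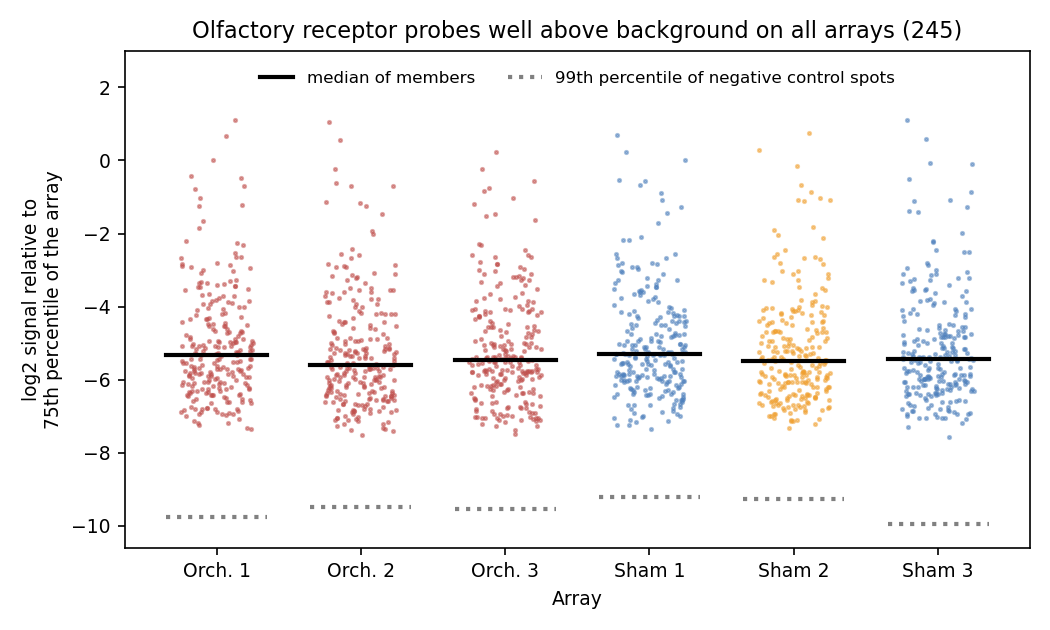
Distribution of the 245 member values on each of the 6 arrays (vertical axis, log2 processed signal less the array's 75th percentile), with the median marked. Medians lie between -5.61 and -5.30 on all arrays, and orchidectomized and sham arrays overlap.

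Some members were high in a single animal. Or52m1 read -3.66, -6.12 and -6.95 in orchidectomized 1 to 3 and -7.14, -6.48 and -6.69 in sham 1 to 3. Orchidectomized 1 alone was high, and the difference without sham 2, orchidectomized minus sham, was 1.33 (SE 0.94). Or4p7 stood out in orchidectomized 3, at -3.77 against -6.08 and -5.61 in the other 2 orchidectomized rats and -6.03, -6.94 and -5.88 in sham 1 to 3. Or2f1 stood out in sham 1, at -4.36, against -6.40 and -6.20 in sham 2 and 3 and -6.17, -6.74 and -6.32 in orchidectomized 1 to 3. These 3 were picked after their values were seen, for large differences between groups that overlap.

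With all 6 arrays, no olfactory receptor probe passed the adjusted threshold. Of 245 members, 0 had an adjusted p under 0.05 in limma with Benjamini-Hochberg adjustment over all 24631 probes tested (percent of all probes called: 0), and the smallest adjusted p among members was 0.775. At an unadjusted limma p under 0.05, 2 members were lower after orchidectomy and 0 higher, which is 0.816% and 0% of members beside 0.641% lower and 0.0893% higher over all probes. With array weights, which gave sham 2 a weight of 0.028, the counts were 48 lower (19.6%, against 10.1% of all probes) and 9 higher (3.67%, against 1.85%). With slide as a block, the groups meet on slide 2 alone, orchidectomized 3 against sham 1, so only the size of the difference is given. Its member median was -0.14, against -0.03 over all tested probes. Over all 6 arrays, the groups did not overlap for 14 members with lower orchidectomized values (5.71%, against 4.74% of all probes). For 3 members they did not overlap with higher orchidectomized values (1.22%, against 3.26%). The difference, orchidectomized minus sham, was below 0 for 132 members (53.9%, against 51.6% of all probes) and above 0 for 113 (46.1%, against 48.4%). Its median was -0.02, as over all probes, it ran from -1.10 to 1.19, and its standard error had a median of 0.26. Without array weights, these shares lay near those of all probes, except for higher values without overlap, which were less frequent among members. With array weights, both shares were larger among members.

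Both members with an unadjusted p under 0.05 on 6 arrays were lower after orchidectomy. Or2ag18 read -6.92, -7.10 and -6.77 in orchidectomized 1 to 3 and -6.06, -6.42 and -6.59 in sham 1 to 3. Every orchidectomized value was below every sham value, and the difference was -0.57 (SE 0.22, limma, adjusted p = 0.775). The first Or1f20 probe read -4.90, -5.18 and -5.41 in orchidectomized 1 to 3 and -4.60, -4.01 and -4.78 in sham 1 to 3. Its groups did not overlap either, and the difference was -0.70 (SE 0.28, limma, adjusted p = 0.775). The other Or1f20 probe read -4.02, -4.17 and -4.21 in orchidectomized and -4.14, -3.89 and -4.27 in sham rats, so its groups overlapped and its difference was -0.03. The pair of probes for this receptor thus gave different readings of the same animals. The pair for Or10p22 overlapped between groups on both probes, with differences of 0.19 and 0.09.

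Without sham 2, again no member passed the adjusted threshold. Of 245 members, 0 were called by limma with Benjamini-Hochberg adjustment over 25208 probes (percent of all probes called: 0), and the smallest adjusted p among members was 0.988. At an unadjusted limma p under 0.05, 8 members were lower (3.27%, against 2.26% of all probes) and 1 was higher (0.408%, against 0.448%). The groups did not overlap for 24 members with lower values after orchidectomy (9.80%, against 10% of all probes) and for 6 with higher values (2.45%, against 6.24%). The difference was below 0 for 166 members (67.8%, against 55.1% of all probes) and above 0 for 79 (32.2%, against 44.9%), with a median of -0.07 against -0.02 over all probes and a median standard error of 0.19. The share of members below 0 was larger than that of all probes, while the arrays' member medians varied within groups by a pooled SD of 0.13. Class I and class II had medians of -0.08 and -0.07, and of -0.01 and -0.03 on 6 arrays.

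The 5 members that were lowest without sham 2, among those whose groups did not overlap, were all class II receptors. Or5w12 read -6.41, -6.72 and -6.88 in orchidectomized 1 to 3 and -5.85 and -4.85 in sham 1 and 3, with -6.46 in sham 2. The difference without sham 2 was -1.32 (SE 0.32, limma, adjusted p = 0.988), and on 6 arrays sham 2 fell within the orchidectomized range. Or2t48 read -7.24, -7.36 and -7.50 in orchidectomized 1 to 3 and -6.23, -7.10 and -6.79 in sham 1 to 3. Its orchidectomized values were the lower with or without sham 2, and the difference without it was -0.85 (SE 0.20, limma, adjusted p = 0.988). Or5w13b read -6.97, -7.16 and -7.05 in orchidectomized and -5.70, -6.63 and -6.95 in sham rats. Its groups were separate by a narrow margin, at -6.97 for the highest orchidectomized and -6.95 for the lowest sham value, and the difference was -0.73 (SE 0.36, limma, adjusted p = 0.988). It was -0.11 without sham 1 and -1.36 without sham 3, and that of Or5w12 was -0.82 without sham 3.

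Or2ag18, named above, was also among these, with a difference of -0.60 without sham 2 (SE 0.21, limma, adjusted p = 0.988), or -0.34 with sham 1 left out too. Or4c52 read -5.86, -5.64 and -6.43 in orchidectomized and -5.31, -5.47 and -5.45 in sham rats, and the difference was -0.59 (limma, adjusted p = 0.988). Its highest orchidectomized value lay just below its lowest sham value, and without orchidectomized 3 the difference was -0.37. Or2y11 read -4.47, -4.47 and -4.52 in orchidectomized rats and -4.23 and -3.56 in sham 1 and 3, and the difference was -0.59 (limma, adjusted p = 0.988). Sham 2, also at -4.52, lay within the orchidectomized range, and the difference was -0.93 without sham 1 and -0.25 without sham 3. The unadjusted limma p was under 0.05 for Or5w12, Or2t48, Or2ag18 and Or2y11, but not for Or5w13b (0.091) or Or4c52 (0.059). It was also under 0.05 for Or4f53b at -0.47, the Or1f20 probe above at -0.47, Or5p66 at -0.42 and Or4a77e at -0.39. The second Or1f20 probe had a difference of 0.07.

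In the opposite direction, Or6c202e read -6.30, -6.56 and -6.27 in orchidectomized 1 to 3 and -6.88 and -6.91 in sham 1 and 3. Its groups did not overlap, and the difference without sham 2 was 0.52 (SE 0.15, limma, adjusted p = 0.988). Sham 2, at -6.18, was above every orchidectomized value, so that the groups overlapped on 6 arrays. Or8c10b (0.37), Or10ak7e (0.35), Or13a27d (0.35) and Or5af1c (0.31) were the next highest among members whose groups did not overlap. Each shrank by more than 1.5 times with 1 array left out, to 0.20 for Or8c10b and 0.18 for Or13a27d without orchidectomized 3, 0.22 for Or10ak7e without sham 1 and 0.19 for Or5af1c without orchidectomized 1. Of these, Or5af1c read -6.27, -6.59 and -6.64 in orchidectomized and -6.73, -6.81 and -6.87 in sham rats, so that its groups were also separate with sham 2.

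**Figure D3:**
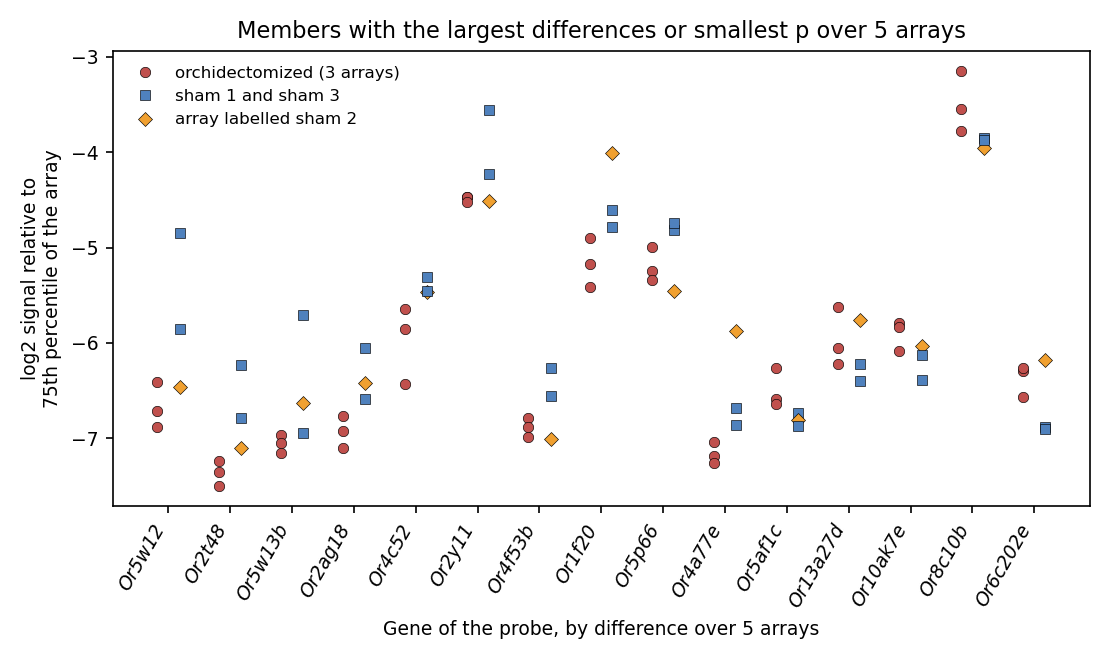
Values of the members with the largest differences on each array (vertical axis, log2 processed signal less the array's 75th percentile; points are single animals, sham 2 marked apart). Or2t48 and Or2ag18 have every orchidectomized value below every sham value, while the groups of Or5w12 and Or6c202e are separate only without sham 2.

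Slide and scan day were shared between groups in 1 case each, and both involve sham 1. On slide 2, orchidectomized 3 minus sham 1 had a member median of -0.14, while all detected probes had -0.02. Below 0 were 164 of 245 members (66.9%, against 53.8% of the probes tested without sham 2). On the first scan day the mean of the 3 orchidectomized arrays minus sham 1 had a member median of -0.13. All detected probes had -0.03, and 167 members were below 0 (68.2%, against 58.2% of tested probes). Against sham 3 alone, which leaves out sham 1, the member median was 0.01. Here 119 of 245 were below 0 (48.6%, against 49% of tested probes). The excess of members below 0 was therefore present against sham 1 and not against sham 3. Detection was highest on sham 1, at 86.2% of probes, and that array held the highest value of 70 members (28.6%, against 13.7% of all detected probes). Orchidectomized 1 also held more than its share, with the highest value of 47 members (19.2%, against 7.50%). The part of these array differences in the result was not tested. For single members, the first-day difference was -0.82 for Or5w12, -1.13 for Or2t48, -0.87 for Or2ag18 and 0.50 for Or6c202e, of the same sign as without sham 2.

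Marker levels of blood, choroid plexus and myelin lay apart between the groups in part, and 0 of these probes passed the adjusted limma threshold in either comparison. The mean log2 value of 3 haemoglobin and red cell genes, each by its brightest probe, was -0.19, 0.06 and -0.18 in orchidectomized 1 to 3. It was 0.69, 0.84 and 0.14 in sham 1 to 3, and these means did not overlap. Of the 4 probes of these genes, all detected on 6 arrays, 3 were lower after orchidectomy. The remaining 1, of Hbb, was higher (0.30 on 6 arrays and 0.36 without sham 2) and is the Hbb probe in the means. The unadjusted limma p was under 0.05 for 3 probes on 6 arrays and 2 without sham 2. Of 8 choroid plexus probes tested, 8 were higher after orchidectomy without sham 2 (median 0.77, 2 with an unadjusted limma p under 0.05), while on 6 arrays 7 were lower (median -2.73). Of 10 myelin probes, 9 were lower without sham 2 (median -0.44, 3 with an unadjusted limma p under 0.05) and 10 were higher on 6 arrays (median 1.15). Of 8 glutamatergic neuron probes, 8 were lower without sham 2 (median -0.16) and 8 were higher on 6 arrays (median 2.49). All 5 ependyma probes were lower in both comparisons (median -0.28 without sham 2 and -2.06 with it). Astrocyte and microglia probes were higher for 6 of 8 and 5 of 8 without sham 2, and for 8 of 8 each on 6 arrays. The choroid plexus, myelin and glutamatergic neuron lists thus changed direction with sham 2, and the blood and ependyma lists did not. Their part in the member values was not tested.

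On the array labelled sham 2 the members moved less than all detected probes, and so did related receptor families. Relative to the median of the other 5 arrays, 14 members were higher by more than 1 log2 unit (5.71%, against 19.5% of 22704 detected probes) and 16 were lower (6.53%, against 20.2%). The median member difference was -0.08, with an SD of 0.77 over members. Sham 2 nevertheless held the lowest value of 93 members (38.0%, against 37.2% of detected probes) and the highest of 60 (24.5%, against 42.5%). Most members therefore shifted by small amounts on an array where 39.6% of probes moved by more than 1 log2 unit, against 12.2% of members. The same share was 15.6% of 32 vomeronasal receptor probes and 16.7% of 6 taste receptor probes detected on all arrays. All these sets, the detected probes included, had to be well above background on sham 2, so probes that fell to background there are missing. Members were also dim, with 89.8% of them below the median of sham 2. The part of the filter and of signal level in these shares was not tested.

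A few members did move with that array. Or8s5 read 0.29 on sham 2 and -4.07 to -3.22 on the other 5 arrays, a difference of 3.82 from their median. Or51f1g read -3.01 against -6.53 to -5.74, a difference of 3.36. Or9s14, Or8w1b and Or4f14e were higher by 1.90, 1.81 and 1.63. In the other direction, Or1x2d read -4.71 against -1.20 to -0.06, a difference of -4.17, and Olr1454 read -4.17 against -2.46 to -1.28, a difference of -2.45. Or7g20 (-2.22), Or2b11 (-1.96) and Olr35 (-1.65) were the next lowest. Values on 1 array have no replicate, and for Or7g20 the orchidectomized arrays alone ran from -6.67 to -4.21. Because of sham 2, Or8s5 had the lowest difference of all members on 6 arrays, -1.10, where without sham 2 it was 0.22.

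**Figure D4:**
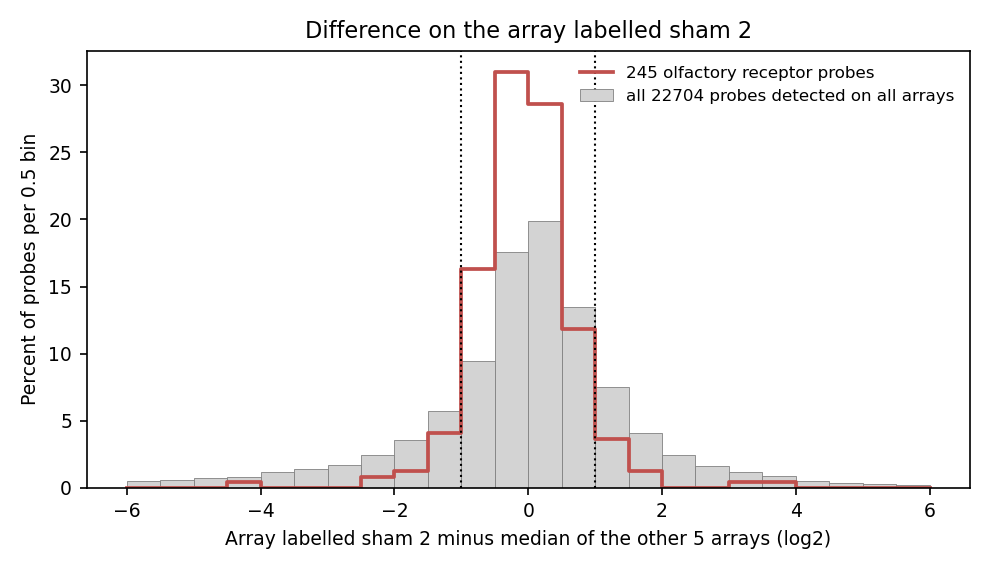
Share of probes (vertical axis, percent) by their difference between the array labelled sham 2 and the median of the other 5 arrays (horizontal axis, log2 units), for the 245 members and for all 22704 detected probes. Members are gathered nearer to 0, with 12.2% past 1 in either direction against 39.6%.

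The member Olr1, the LOX-1 gene, read -5.63, -5.80 and -5.38 in orchidectomized 1 to 3 and -5.57, -4.79 and -5.65 in sham 1 to 3. Its highest value was on sham 2, the groups overlapped, and the difference was 0.01 without sham 2 and -0.26 with it. Olr59 read -5.71, -6.02 and -5.02 in orchidectomized and -5.25, -6.19 and -5.25 in sham rats. Its groups overlapped as well, with a difference of -0.33 without sham 2 (SE 0.30) and of -0.02 with it.

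Partners of the receptors were read from a list of 41 genes of odorant signalling, receptor transport and receptor gene control, of which 37 had a probe. Of 45 probes, 35 were detected on all arrays and 2 on none. Gnal, which striatal neurons also use, read -0.54 on sham 2 and -0.27 to -0.01 on the others. Ric8b, which assists the Gnal product, was detected on all arrays, and so were both probes of the G protein subunit Gng13 and the receptor transporter Rtp1. The transporter Rtp2 was detected on 5. Cnga2 was detected on no array and Omp, the marker protein of mature olfactory neurons, on 2, orchidectomized 1 and sham 1. Ano2, the chloride channel of olfactory cilia, was not analysed here.

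No probe of that list passed the adjusted threshold either. Without sham 2, 0 of 40 tested probes were called by limma with Benjamini-Hochberg adjustment, 16 were higher and 24 lower, and the median was -0.08, while all probes had -0.02. Unadjusted limma p was under 0.05 for Ebf4, a transcription factor of the Olf1/Ebf family, with -5.30, -5.51 and -5.33 in orchidectomized and -4.89 and -5.05 in sham 1 and 3 (difference -0.41, SE 0.14, adjusted p = 0.988). The phosphodiesterase Pde1c, detected on 3 arrays, read -7.06, -7.52 and -7.76 in orchidectomized and -6.39 and -6.83 in sham 1 and 3. It passed the detection filter through sham 1 and 3 alone, the group where it was high, so its lower value after orchidectomy (-0.83, SE 0.25) is no support for a difference. Ebf4 and Pde1c read lowest on sham 2, at -6.93 and -9.34. With 6 arrays, 0 of 39 were called, none had an unadjusted p under 0.05, and 28 were higher and 11 lower with a median of 0.32. The list moved with sham 2, as did Adcy3, at -6.07 there and -2.32 to -1.54 elsewhere.

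Other nasal cells left little signal. Of 5 probes for supporting cells and glands of the olfactory mucosa, 0 were detected on all arrays and 3 on none. Of 10 probes in the olfactory sensory neuron list, several of them shared with the signalling list, 5 were detected on all arrays and 2 on none. The mean over their 9 genes, each by its brightest probe, was -6.78 on sham 2 and -5.74 to -4.67 on the others. Of the defining markers, Cnga2 was detected on no array, and Omp read -7.37 and -6.78 on the 2 arrays that detected it. Vomeronasal receptors, a separate chemoreceptor family, had 32 probes detected on all arrays, with 19 lower and 13 higher without sham 2 and a median of -0.02. With all 6 arrays the vomeronasal counts were 9 lower and 23 higher, with a median of 0.11, so their direction changed with sham 2. Over all probes 55.1% were below 0 without sham 2 and 51.6% with it. Taste receptors had 6, of which 5 were lower without sham 2, with a median of -0.21, and 4 with it, with a median of -0.19.

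The sign of the member median changed with the processing. With normexp background correction, which models the local background and adds an offset of 50, it was 0.16 on 6 arrays and 0.19 on 5. Over all probes the normexp medians were 0.07 and 0.08. Per array, 89.8% to 91.8% of members lay below the median signal, and the part of the offset in this sign was not tested. With quantile normalization on 5 arrays the member median was 0.062, and with the authors' deposited values on 6 arrays it was 0.04. Under normexp, 1 member had separate groups with lower values after orchidectomy in either comparison (0.408%, against 2.20% and 4.68% of all probes), in place of 14 and 24, and the differences of Or2t48, Or2ag18, Or4f53b, Or4a77e, Or5w13b and Or4c52 without sham 2 were above 0. The differences of Or5w12, Or2y11, Or5p66, the Or1f20 probe and Or6c202e kept their sign in every alternative run but shrank under normexp, to -0.28, -0.29, -0.03, -0.03 and 0.33 without sham 2. No direction for the members as a set held across these settings, and 0 members were called in any.

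**Figure D5:**
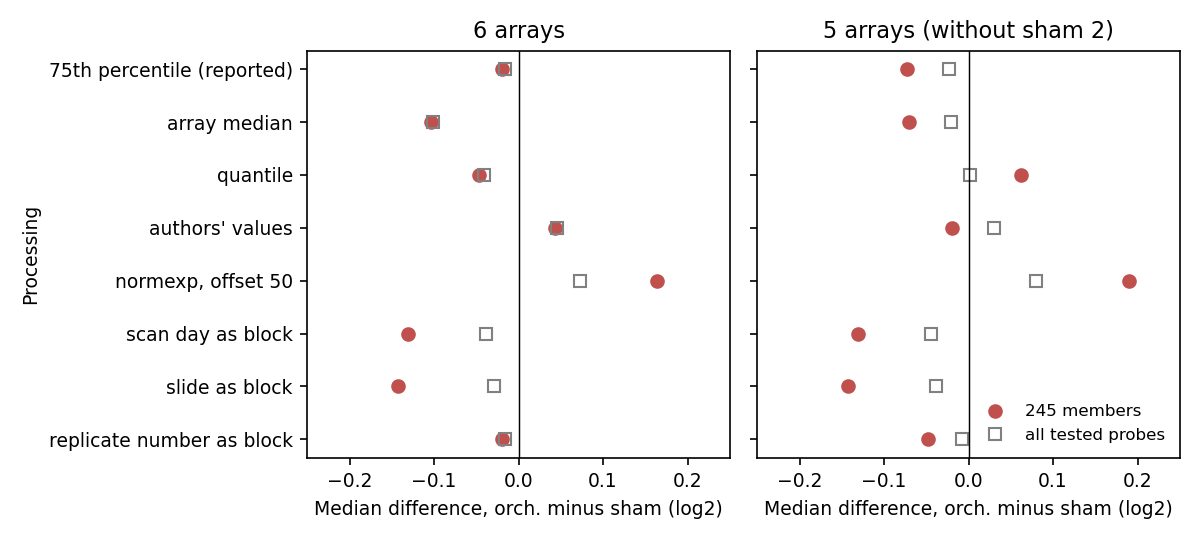
Median difference of the 245 members, orchidectomized minus sham (log2 units), under each processing alternative, with 6 arrays and without sham 2. The values as reported are -0.02 and -0.07, while normexp lies at 0.16 and 0.19 and quantile normalization without sham 2 at 0.06.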

How the data were processed

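Per the file headers, each array was read in 1 colour with Agilent Feature Extraction 10.5.1.1, and its deposited processed signal is a background-subtracted, spatially detrended intensity on a linear scale. A value table deposited by the authors is on the log2 scale and equals log2 processed signal plus a constant per array. The median constants ran from -0.32 to 0.72 and the column medians from 7.62 to 8.05. Their scale is log2 and single-colour values have no direction, while their centring stays unknown.

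Of 44254 spots per array, 1377 control spots and outlier spots were left out. Spots of a probe were averaged as log2 processed signal, and each array's 75th percentile was subtracted. The files used here hold accessions and no gene names; 18004 of 30367 probes (59.3%) were named through the GRCr8 gene table. A probe counted as well above background where at least 50% of its spots did. Where every array of a group had a probe above background, the probe was fitted in limma 3.58.1 (lmFit, eBayes; R 4.3.3) and two-sided p-values were adjusted by Benjamini-Hochberg over all tested probes, once on 6 arrays and once without sham 2. The p-values measure the spread between samples that the labels call biological replicates. All members had 1 spot per array, none saturated. Precision is limited by how few arrays there are.

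The named members were up to 8 per direction with an unadjusted p under 0.05, the 5 largest differences per direction among those without overlap on 5 arrays, the 5 largest shifts per direction on sham 2, genes with more than 1 member probe, members no longer named as olfactory receptors, and 3 on each side of the detection threshold. Olr59, Or52m1, Or4p7 and Or2f1 were named after their values were seen. The members and lists were chosen with earlier results of these data known. The fit was tested on simulated data. Alternatives were other scalings, background correction, filters, the authors' values, array weights, blocks, and each array left out. The normexp correction used the median spot signal.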

Additional observations from a re-analysis of the deposited data

How the results depend on the processing

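In both comparisons 0 members passed the adjusted limma threshold in every setting run. On 6 arrays the member median of -0.02 became 0.16 with normexp background correction and -0.14 with slide as a block. Without sham 2 the median of -0.07 became 0.062 with quantile normalization and 0.19 with normexp. Leaving out 1 array at a time gave medians from -0.09 to 0.04 on 6 arrays and from -0.13 to 0.01 on 5. The sign turned on 6 arrays with the authors' deposited values (0.043) and without orchidectomized 2 (0.017) or sham 1 (0.041), and on 5 arrays without sham 1 (0.0064). The number of members with separate groups and lower values after orchidectomy was 14 on 6 arrays (5.71%, against 4.74% of all probes). It was 23 with array-median scaling (9.39%, against 5.23%), which moved the median of all probes to -0.10, and 1 with normexp (0.408%, against 2.20%). With 1 array left out it ran from 18 to 37, and moved by more than 1.5 times without orchidectomized 1 (32, 13.1% against 9.01%), sham 1 (24, 9.80% against 10.6%), sham 2 (24, 9.80% against 10%) or sham 3 (37, 15.1% against 16.2%). On 5 arrays that number was 24 (9.80%, against 10%), with quantile normalization 14 (5.71%, against 7.70%) and with normexp 1 (0.408%, against 4.68%). With 1 array left out it ran from 31 to 95, and moved by more than 1.5 times without orchidectomized 1 (64, 26.1% against 18%), orchidectomized 3 (42, 17.1% against 18.3%), sham 1 (51, 20.8% against 23.8%) or sham 3 (95, 38.8% against 34.9%). Fewer arrays separate more easily, and the all-probe shares rose too. Over the 10 members whose symbol still begins with Olr, a choice made after seeing the data, the number was 0 and 2.

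Under normexp the difference was 0.064 for Or2ag18 on 6 arrays, and without sham 2 it was 0.11 for Or2ag18, 0.058 for Or2t48, 0.20 for Or4f53b, 0.18 for Or4a77e, 0.070 for Or5w13b and 0.11 for Or4c52. Quantile normalization gave 0.017 for Or4a77e. These 8 of 274 alternative values reversed, and 10 of 17 named differences never did. The cause was not tested.

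The labels give both groups the same replicate numbers. Deviations of same-numbered samples correlated at 0.03, -0.02 and -0.02, and those of differently numbered samples at -0.06 to 0.08. With 3 arrays per group, sham 2 among them, these values cannot show whether the numbers pair the samples. With the replicate block, 0 members were called, and the medians were -0.02 on 6 arrays and -0.05 on 5.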
